A study of Homo sapiens with 14 samples.

Results

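The genes described here encode the ATP-binding cassette (ABC) transporters, membrane proteins that use the energy of ATP to move lipids, drugs, peptides or metal cofactors across a membrane, together with a few relatives that work on the ribosome. Members were the protein-coding genes of chromosomes 1 to 22 in GENCODE release 44 whose names are ABCA to ABCG followed by a number, and 43 of 19111 autosomal protein-coding genes met this rule. They comprised 12 ABCA, 8 ABCB, 11 ABCC, 3 ABCD, 1 ABCE, 3 ABCF and 5 ABCG genes.

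Chromatin accessibility was profiled by Omni-ATAC, in which a transposase cuts open chromatin, in 14 libraries of MM.1S and RPMI8226, established human multiple myeloma (MM) cell lines. MM.1S was represented by 3 libraries of cells grown alone (MONO), 3 of cells in an upper transwell above HS5, an immortalised human bone marrow stromal line (TSW), and 3 of cells in direct contact with HS5 (CO). RPMI8226 was represented by 1 MONO, 2 TSW and 2 CO libraries, and the cells were sorted as CD90-CD38+ before the assay to leave out stromal cells. The data were 1 list of reference peaks per line, each peak called in at least 3 libraries, with its support, that is, the number of libraries in which it was called. Conditions are merged within a list and no value is given per library. The lists carry no sequencing depth. Read totals that the study tabulates in its supplement differ between libraries and were not used here, so how far a shallower library lowered support was not tested. MONO, TSW and CO were not compared, and comparisons are between 1 list and the other, without replicates. The lists also differ in stringency, since a peak needed 3 of 9 libraries to enter in MM.1S and 3 of 5 in RPMI8226. Full support likewise means 9 libraries in MM.1S and 5 in RPMI8226. All 10 plasma cell marker genes had a promoter peak in both lines, against 5 of 10 stromal marker genes and 69.8% of all 19111 genes. Of the stromal markers, COL1A1, PDGFRB and FN1 had a promoter peak called in all 9 and all 5 libraries. The counts therefore do not show that stromal cells were absent, and the paper notes minimal HS5 carry-over in sorted lower-chamber cells.

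ABC transporters matter to a myeloma cell in several ways. ABCB1 (P-glycoprotein), ABCG2 and several ABCC proteins pump drugs out of the cell, and ABCA1 and ABCG1 hand cholesterol to lipoproteins under the control of the liver X receptors (LXR), which bind direct repeats of a short core sequence together with RXR. ABCB6, ABCB8, ABCB10 and the ABCD proteins serve mitochondria, peroxisomes and lysosomes, whereas ABCE1 and the ABCF proteins have no membrane domain and act in translation. Many ABCA genes and the bile transporters belong to lung, skin, retina or liver and are textbook examples of tissue-restricted genes.

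Sequences are given first for the starts on which the results turn. Each is the 250 bases before a start in hg38, read 5′ to 3′ on the strand of the gene, and all of these genes lie on the minus strand. The ABCA1 sequence, chr9:104928156-104928405, ends at the base before the canonical start, and its capitals mark an E-box (CACGTG) and a match to DR4, the core GGTNA repeated directly with 5 bases between the copies, here read from the opposite strand.
ABCA1: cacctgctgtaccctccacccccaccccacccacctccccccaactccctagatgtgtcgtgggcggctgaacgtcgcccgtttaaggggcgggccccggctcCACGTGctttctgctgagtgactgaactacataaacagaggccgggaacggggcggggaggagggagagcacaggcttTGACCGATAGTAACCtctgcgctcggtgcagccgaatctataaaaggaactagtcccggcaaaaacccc
The DR4 match lay 69 to 55 bases before the start and the E-box 147 to 142 bases before it. Both fell inside the promoter peak of MM.1S and inside that of RPMI8226. In the following sequences capitals mark CG dinucleotides, because members open in both lines and members open in neither differed in their number. ABCB1 is shown at its canonical start (chr7:87600885-87601134) and at an outer start (chr7:87713296-87713545), ABCC9 (chr12:21941427-21941676) was closed in both lines, that is, had no promoter peak listed, in spite of many CG, and ABCA6 (chr17:69141896-69142145) is a closed member with few CG.
ABCB1 canonical start: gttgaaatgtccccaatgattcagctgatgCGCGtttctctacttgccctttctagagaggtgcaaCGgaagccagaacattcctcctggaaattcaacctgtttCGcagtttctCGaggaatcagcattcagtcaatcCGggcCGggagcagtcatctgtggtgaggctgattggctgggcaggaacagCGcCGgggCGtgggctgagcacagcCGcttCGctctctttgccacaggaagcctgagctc
ABCB1 outer start: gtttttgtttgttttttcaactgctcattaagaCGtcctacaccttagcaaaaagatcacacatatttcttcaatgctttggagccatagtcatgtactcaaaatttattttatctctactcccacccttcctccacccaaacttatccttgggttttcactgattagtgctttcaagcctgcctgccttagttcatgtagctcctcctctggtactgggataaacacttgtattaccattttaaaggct
ABCC9: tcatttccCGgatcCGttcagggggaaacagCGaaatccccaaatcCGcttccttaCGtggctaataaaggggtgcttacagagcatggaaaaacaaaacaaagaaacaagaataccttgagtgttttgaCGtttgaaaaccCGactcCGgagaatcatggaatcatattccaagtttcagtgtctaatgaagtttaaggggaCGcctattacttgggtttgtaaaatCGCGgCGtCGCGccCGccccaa
ABCA6: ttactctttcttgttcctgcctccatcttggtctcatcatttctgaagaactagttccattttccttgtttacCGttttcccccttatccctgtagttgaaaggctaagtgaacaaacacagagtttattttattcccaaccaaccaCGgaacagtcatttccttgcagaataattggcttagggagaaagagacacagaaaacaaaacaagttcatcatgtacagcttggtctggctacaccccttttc
These 250 bases held 12 CG at the canonical start of ABCB1 and 1 at its outer start, 15 CG in ABCC9 and 2 in ABCA6.

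A promoter peak was a peak within 2500 bp of any annotated start of the gene. In MM.1S, 31 of 43 members had one (72.1%, 95% Wilson interval 57.3 to 83.3), where 77.9% of all 19111 genes did. RPMI8226 had 30 (69.8%, interval 54.9 to 81.4) against 73% of all genes. The same member was open in both lines in 29 cases (67.4%, background 69.8%), in MM.1S only in 2 cases (4.65%, background 8.09%) and in RPMI8226 only in 1 case (2.33%, background 3.18%). No promoter peak was listed in either line for 11 members (25.6%, interval 14.9 to 40.2), against 19% of all genes. The intervals given here each contained the background share, and they cover counting error over genes only.

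Support was mostly complete where a promoter was open, among members and among all genes. A promoter peak called in all 9 MM.1S libraries was found for 26 members (60.5%, background 70.2%), and one called in all 5 RPMI8226 libraries for 28 (65.1%, background 67.6%). Among genes open in MM.1S, 26 of 31 members had such a peak, against 13417 of all 14881. In RPMI8226 the counts were 28 of 30 members and 12917 of all 13943 genes. Of the 29 members open in both lines, 26 had full support in both. Each of the 29 had at least 1 promoter peak that overlapped a peak of the other line. No all-gene share is available for these last 2 counts. Promoter peaks were wider in the MM.1S list for 25 of these 29 genes (86.2%), with a median widest peak of 986 bp in MM.1S and 804 bp in RPMI8226. The same order held for 89.4% of all 13335 genes open in both lines.

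The members with a promoter peak in neither line were ABCA6, ABCA8, ABCA9, ABCA10, ABCA12, ABCA13, ABCB11, ABCC6, ABCC9, ABCG5 and ABCG8. By subfamily, ABCA was open in both lines at 5 of 12 genes and closed in both at 6, ABCB was open in both at 5 of 8 and closed at 1, ABCC was open in both at 9 of 11 and closed at 2, and ABCG was open in both at 3 of 5 and closed at 2. The 3 ABCD genes, ABCE1 and the 3 ABCF genes were open in both lines at full support. Grouped by role, all 9 drug efflux genes, all 7 genes of mitochondrion, peroxisome and lysosome and all 4 translation genes were open in both lines, against 69.8% of all genes and 84.6% of CpG-rich genes. A CpG-rich start (GC above 50% and a CpG observed-to-expected ratio above 0.6) was found in 7, 5 and 4 of these genes, respectively. Of 12 genes of sterol and lipid export, 6 were open in both and 4 in neither, and of 9 remaining genes, 2 were open in both and 6 in neither. Roles were assigned gene by gene, and the remaining genes included ABCB5, ABCC6 and ABCC12, so the counts by role depend on this grouping.

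**Figure D1:**
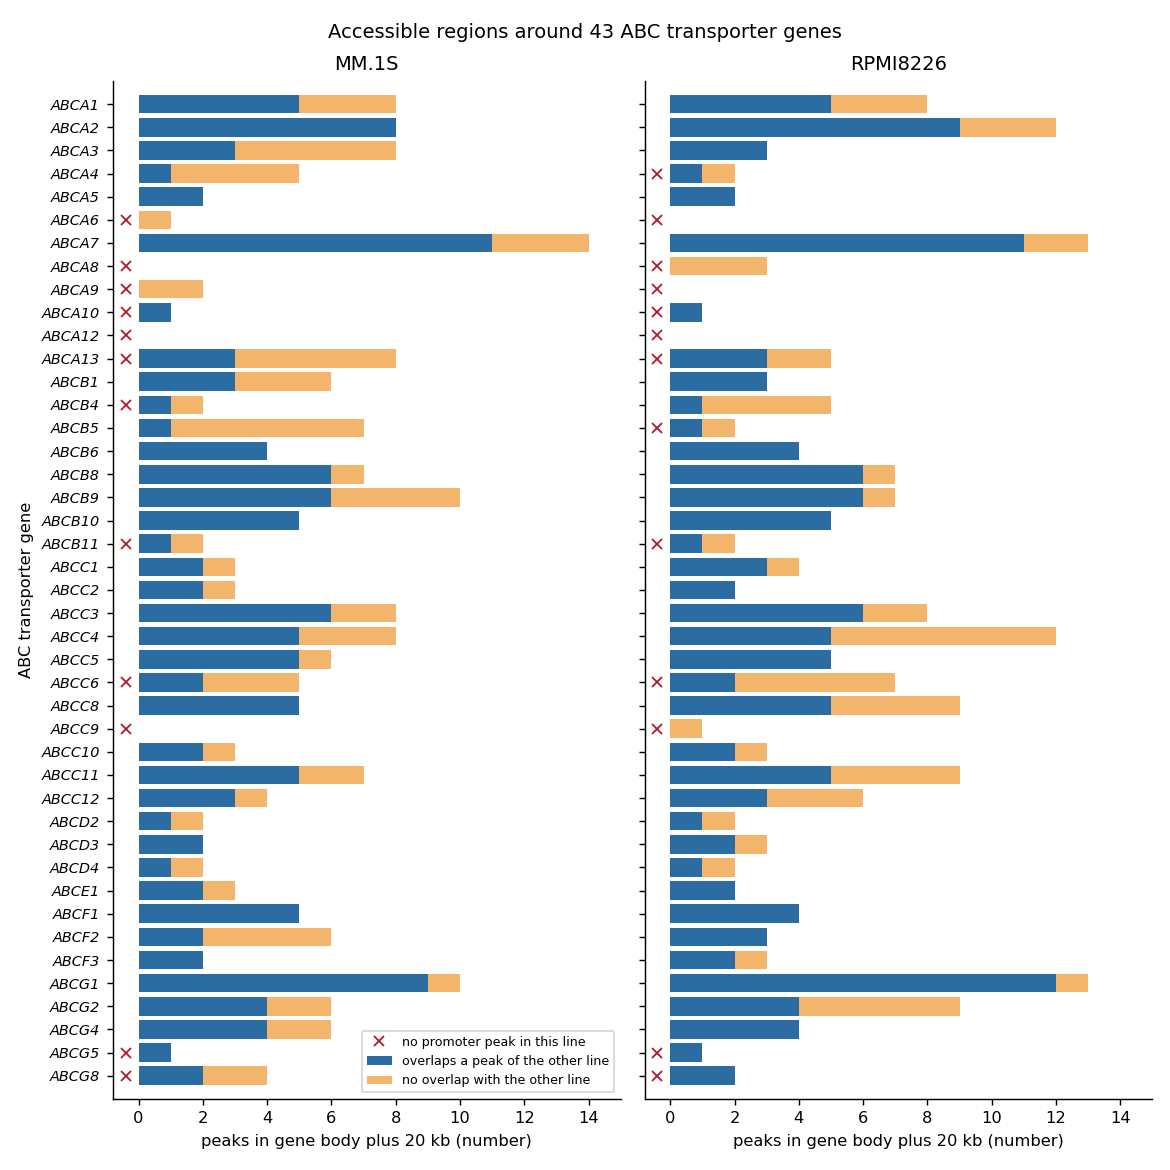
Number of reference peaks in the gene body plus 20 kb on either side for each of the 43 ABC transporter genes in MM.1S (left) and RPMI8226 (right). Blue bars are peaks that overlapped a peak of the other line, orange bars are peaks that did not, and red crosses mark genes with no promoter peak in that line. ABCA7 has the longest MM.1S bar with 14 peaks and ties with ABCG1 at 13 in RPMI8226, and the crosses cluster on ABCA6 to ABCA13.

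Members open in both lines and members open in neither differed in base composition. A canonical start was called CpG-rich when the 500 bp on either side had GC above 50% and a CpG observed-to-expected ratio above 0.6, which held for 26 of 43 members (60.5%) and 65.4% of all genes. Among the 26 CpG-rich members, 24 were open in both lines (92.3%, interval 75.9 to 97.9), where 84.6% of CpG-rich genes were, and only ABCC9 was open in neither (3.85%, background 6.59%). Among the 17 other members, 5 were open in both lines (29.4%, interval 13.3 to 53.1, background 41.7%) and 10 in neither (58.8%, interval 36.0 to 78.4, background 42.3%). The 5 open ones were ABCB9, ABCC2, ABCC11, ABCC12 and ABCD2. Composition was taken at the canonical start and openness at any start. ABCC8, which is CpG-rich, and ABCC2 and ABCC11, which are not, had no peak at the canonical start in either line, and the CpG-rich ABCC3 had none there in MM.1S. In the promoter sequences of 35 members, the median number of CG per 300 bases was 24 for the 25 members open in both lines and 3 for the 10 open in neither, and 22 over 14616 promoters. The sequences of ABCB1 and ABCG2 in this count were those of outer starts without a peak, and ABCC6, closed in both lines, held 25 CG but had a ratio of 0.56.

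**Figure D2:**
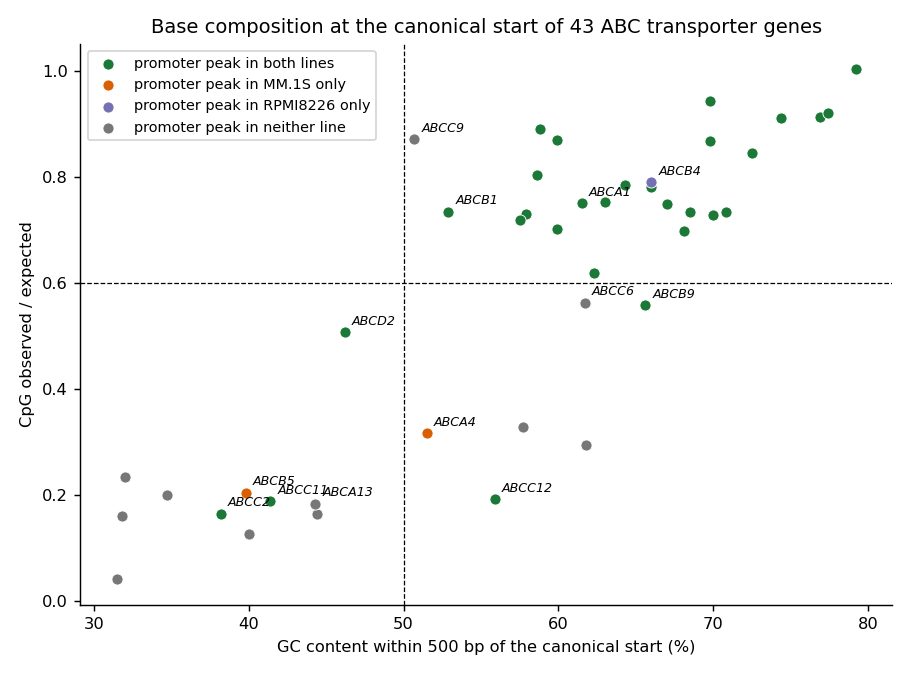
GC content (x axis, percent) and CpG observed-to-expected ratio (y axis) within 500 bp of the canonical start for the 43 genes, coloured by the lines in which a promoter peak was listed. Dashed lines mark 50% GC and a ratio of 0.6; 24 of the 26 points in the upper right are open in both lines, and ABCC9 is the only grey point there.

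Drug efflux genes are the members best known from treatment failure, and all 9 had a promoter peak in both lines. For ABCC2 and ABCC11 in both lines, and for ABCC3 in MM.1S, that peak lay only at starts other than the canonical one. Of 50 MM.1S peaks in their neighbourhoods, meaning the gene body plus 20 kb on either side, 19 were called in all 9 libraries (38%), and in RPMI8226 36 of 55 were called in all 5 (65.5%). Over all members the shares were 110 of 195 peaks (56.4%, interval 49.4 to 63.2, background 55.4%) in MM.1S and 135 of 193 (69.9%, interval 63.1 to 76.0, background 66.5%) in RPMI8226. The lowest share among the roles in MM.1S was that of drug efflux, and the highest was that of the channel regulators, with 4 of 5 peaks. No test was made of these differences, and peaks of the same gene are not independent.

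**Figure D3:**
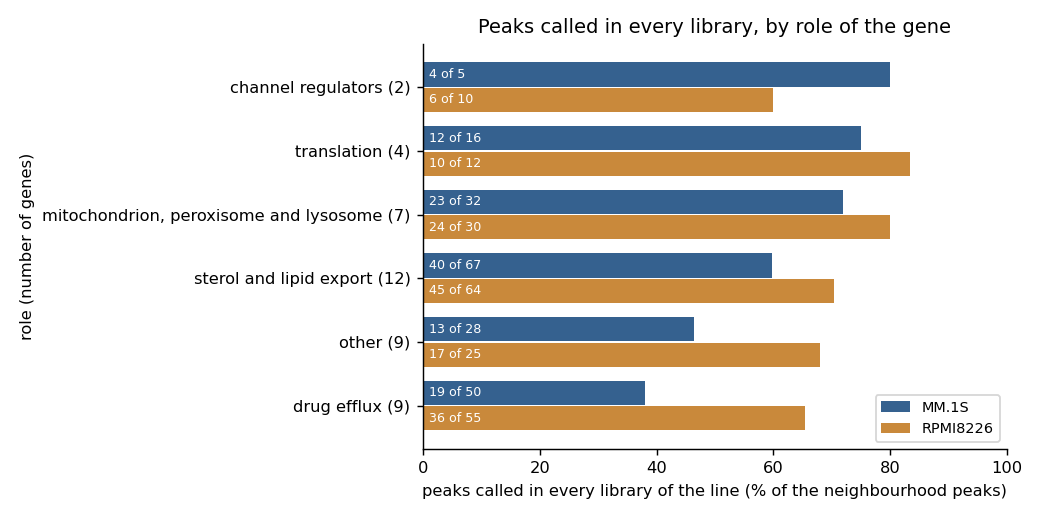
Share of neighbourhood peaks called in every library of the line (x axis, percent), by role of the gene, with the number of genes in parentheses and the peak counts inside the bars. Drug efflux genes have the shortest MM.1S bar (38%), and their RPMI8226 bar reaches 65.5%.

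ABCB1 encodes P-glycoprotein, the efflux pump best known from multidrug resistance. The gene spans chr7:87503017-87713323 on the minus strand, and its canonical start at 87600884 lies well inside it, downstream of the outer start shown above. Positions of peak centres are given from the canonical start in the direction of transcription, negative values lying upstream. MM.1S had 6 peaks in the neighbourhood and RPMI8226 had 3, an order that reversed with a flank of 50 kb, where MM.1S had 6 and RPMI8226 had 8. The outer start had no peak within 2500 bp in either line. Near the canonical start both lines had a peak in the first kilobases of the gene, centred 1326 bp downstream in MM.1S (410 bp wide, all 9 libraries) and 1392 bp downstream in RPMI8226 (257 bp, all 5 libraries), and these overlapped. A second MM.1S peak was centred 470 bp downstream (484 bp, 8 of 9 libraries) and had no counterpart in the RPMI8226 list. The start base itself was under no peak in either line.

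The middle 200 bases of both MM.1S peaks are printed on the plus strand because they differ between the lines, the MM.1S-only peak at chr7:87600314-87600513 and the shared peak at chr7:87599458-87599657. Neither window touches an annotated exon of ABCB1, and capitals mark an E-box.
ABCB1 peak listed in MM.1S only: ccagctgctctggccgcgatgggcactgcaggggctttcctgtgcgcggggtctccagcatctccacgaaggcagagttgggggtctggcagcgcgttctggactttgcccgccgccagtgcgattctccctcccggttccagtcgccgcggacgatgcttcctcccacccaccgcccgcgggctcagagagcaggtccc
ABCB1 peak shared by both lines: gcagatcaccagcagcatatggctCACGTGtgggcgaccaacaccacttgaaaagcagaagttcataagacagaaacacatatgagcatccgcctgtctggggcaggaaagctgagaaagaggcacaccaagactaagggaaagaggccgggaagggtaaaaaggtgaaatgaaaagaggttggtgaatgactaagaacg
The MM.1S-only window held 18 CG and none of the motifs AP-1 (TGANTCA), ATF::CEBP (TGATGNAA), STAT (TTCCNGGAA), CRE (TGACGTCA), E-box or DR4, whereas the shared window held 5 CG and the E-box. Both lines also listed an intronic peak, centred 36496 bp into the gene in MM.1S, called in 5 of 9 and 4 of 5 libraries, and one at the inner start of a retained-intron transcript, called in 4 of 9 and 4 of 5. The remaining MM.1S peaks had no counterpart in RPMI8226. One was an intronic peak 57022 bp downstream of the start (4 libraries). The other was a 1576 bp peak at -27753 bp (9 libraries), which lay at a start of RUNDC3B, a gene that begins within the outer part of ABCB1, and cannot be assigned to either gene by position.

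ABCG2 encodes the breast cancer resistance protein, which exports many anticancer drugs. Its promoter was one of the few with incomplete support, called in 7 of 9 MM.1S libraries (676 bp) and in 5 of 5 RPMI8226 libraries (1051 bp). Across the neighbourhood MM.1S had 6 peaks, 2 of them at full support, and RPMI8226 had 9, of which 8 were at full support, and 4 peaks of each line overlapped. Of the 5 RPMI8226 peaks without a counterpart, 4 lay together in introns between 47614 and 57309 bp downstream of the start.

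ABCC4 exports cyclic nucleotides and nucleoside drugs, and its promoter was complete in both lines. MM.1S had 8 peaks, 2 at full support, and RPMI8226 had 12, 9 at full support. The promoter peak measured 1178 bp in MM.1S and 1197 bp in RPMI8226. The peaks apart from the promoter were intronic, except for 1 upstream peak in each line, and 7 of the 12 RPMI8226 peaks overlapped none in MM.1S.

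ABCC1, which exports glutathione conjugates and drugs, had the widest promoter peak of all members in MM.1S (1850 bp, 9 libraries), which RPMI8226 matched with separate peaks of 804 and 396 bp (5 libraries each). A second MM.1S promoter peak 58132 bp into the gene (745 bp, 9 libraries) was absent from the RPMI8226 list. ABCC2, an exporter of conjugates best known from liver, had no peak at its canonical start in either line and was counted open through inner starts of noncoding transcripts, with a peak 63377 bp downstream called in 8 of 9 MM.1S libraries and its counterpart in 3 of 5 RPMI8226 libraries. That was the weakest promoter support of any member listed in both lines. ABCC3, an exporter of organic anions, had 8 peaks in each line, and its canonical start was listed in RPMI8226 only, with 313 bp called in 4 of 5 libraries, whereas MM.1S showed only inner-start peaks (9 and 8 libraries).

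ABCC11, which carries lipophilic anions, was likewise closed at its canonical start and open at inner starts in both lines, and 1 of its promoter peaks (9 and 5 libraries) lay at a start of LONP2. ABCC5 had 6 and 5 peaks with a complete promoter, and ABCC10 had 3 peaks in each line with a complete promoter, and in both genes every canonical-start peak was shared. In all, 6 members open in MM.1S were so only through a start other than the canonical one, namely ABCA4, ABCB5, ABCC2, ABCC3, ABCC8 and ABCC11, and in RPMI8226 these were ABCC2, ABCC8 and ABCC11. Counting canonical starts alone left 25 members open in MM.1S and 27 in RPMI8226. No all-gene share at canonical starts is available. Whether members differ from other genes in this cannot be told from these counts.

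ABCA1 passes cholesterol and phospholipid to apolipoprotein A-I and is a textbook LXR target. The gene lies at chr9:104781006-104928155 on the minus strand, and each line had 8 peaks in its neighbourhood, of which 5 overlapped the other line. The promoter peak measured 1111 bp in MM.1S (9 libraries) and 1068 bp in RPMI8226 (5 libraries), and its edge within the gene was at the same base in both. A second promoter peak was centred 1396 bp into the gene in MM.1S (521 bp, 9 libraries) and 1424 bp into it in RPMI8226 (454 bp, 5 libraries).

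The middle 200 bases of that second MM.1S peak, chr9:104926659-104926858 on the plus strand and outside any annotated exon, are printed because they held another DR4 match, marked by capitals.
ABCA1 peak in the first intron: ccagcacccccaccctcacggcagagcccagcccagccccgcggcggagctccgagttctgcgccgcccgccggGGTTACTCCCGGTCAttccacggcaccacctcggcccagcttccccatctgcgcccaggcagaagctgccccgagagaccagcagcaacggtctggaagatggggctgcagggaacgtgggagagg
The same match was found in the middle 200 bases of the RPMI8226 peak. Among 35 member promoter sequences of 300 bases, only that of ABCA1 held a DR4 match (2.86%), namely the match 69 to 55 bases before its start. Of 14616 promoters of the same length, 0.486% held DR4. The first-intron match lies outside these sequences. A match is a property of the letters and says nothing of binding.

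Away from its promoter, ABCA1 had 3 further shared peaks. An upstream peak at -13511 bp in MM.1S was called in 5 of 9 libraries, and its counterpart at -13619 bp in all 5 RPMI8226 libraries. The intronic peak centred 64645 bp into the gene in MM.1S was called in 9 libraries and its RPMI8226 counterpart in 5, and a peak over an exon near the end of the gene in 8 and 4. MM.1S alone had an intronic peak at 58900 bp (8 libraries) and downstream peaks at 152507 and 164033 bp (9 libraries each), the last of them at a start of NIPSNAP3B. RPMI8226 alone had peaks at 6620 bp (4 libraries), -12657 bp (4 libraries) and 147666 bp downstream (3 libraries).

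**Figure D4:**
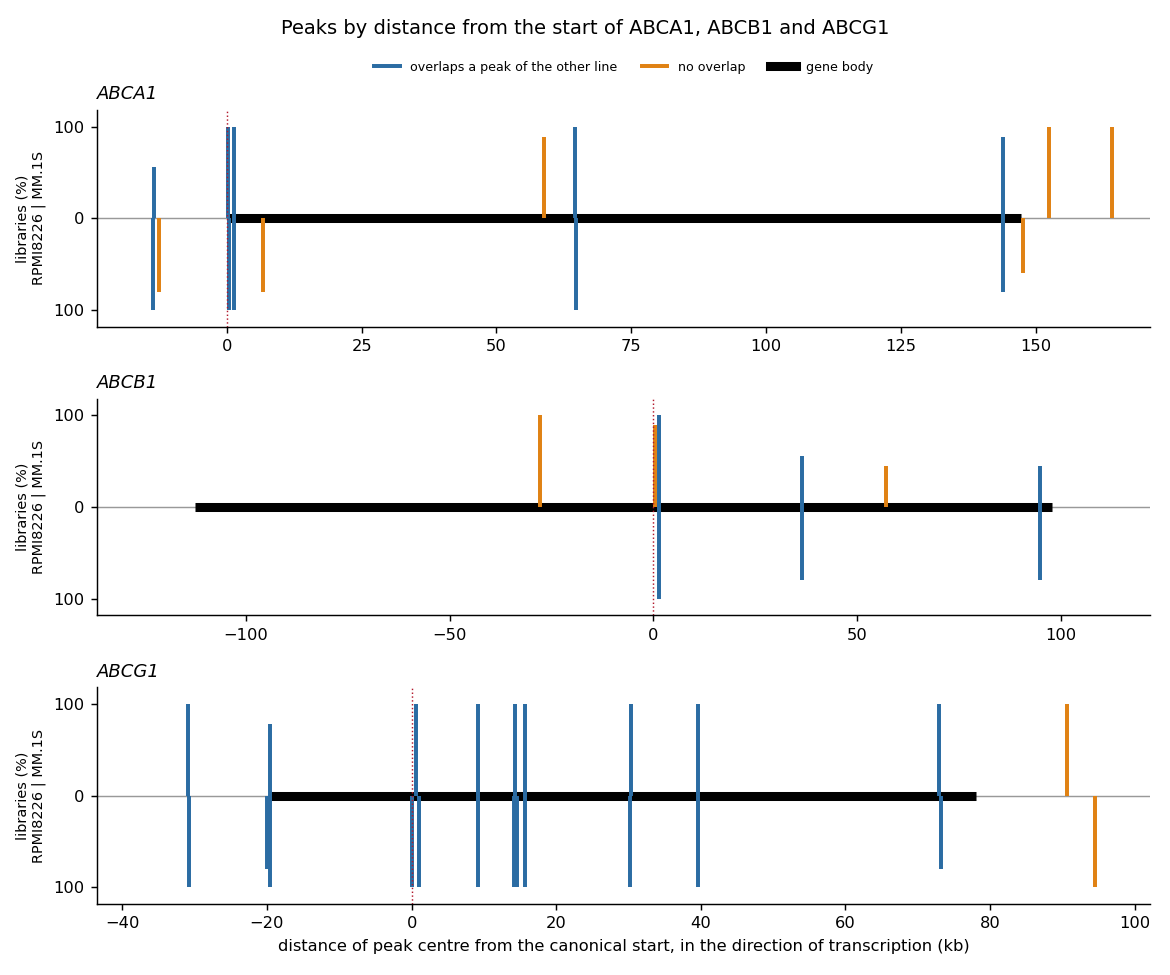
Reference peaks of ABCA1, ABCB1 and ABCG1 by the distance of the peak centre from the canonical start in the direction of transcription (x axis, kb; dotted line at the start, black bar for the gene body). Lines point up for MM.1S and down for RPMI8226, with the share of libraries in percent on the y axis; blue peaks overlap a peak of the other line and orange ones do not. Nearly all ABCG1 peaks are blue, whereas ABCB1 has 3 orange peaks, all in MM.1S.

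ABCG1, which moves cholesterol to high density lipoprotein, had peaks that were mostly complete and mostly shared. MM.1S had 10 there, 9 of them called in all 9 libraries and 9 overlapping the other line. RPMI8226 had 13 peaks, 11 called in all 5 libraries and 12 overlapping. The difference in number came in part from joined peaks, since the 1735 bp promoter peak of MM.1S, among the 5 widest of the members, overlapped separate RPMI8226 peaks of 670 and 879 bp. An intronic peak centred 15672 bp into the gene in MM.1S and 15668 bp in RPMI8226, at full support in both, held a DR4 match in its middle 200 bases. Over peaks away from promoters, 4 of 90 member peaks in MM.1S held DR4 (4.44%, against 0.712% of 31454 such peaks) and 1 of 92 in RPMI8226 (1.09%, against 0.766% of 34575). The other 3 MM.1S matches lay in intronic peaks of ABCA13, ABCB11 and ABCC4 called in 3 libraries each.

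ABCA7, a phospholipid transporter known as an Alzheimer disease locus, had 14 peaks in MM.1S and 13 in RPMI8226, or 21.3 and 19.8 per 100 kb. These were the most peaks of any member in MM.1S, and in RPMI8226 ABCA7 tied with ABCG1. ABCA2, a lysosomal lipid transporter of brain, was next in density with 13.0 and 19.5 per 100 kb, from 8 and 12 peaks. Several of these peaks lay at starts of other genes, among them CNN2 and ARHGAP45 around ABCA7 and FUT7 and NPDC1 around ABCA2, so the density also counts regions of neighbouring genes. The widest ABCA2 promoter peak of 1513 bp in MM.1S was called in 8 libraries and also overlapped the window of a FUT7 start.

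ABCA3, which loads surfactant lipid in lung, had 8 peaks in MM.1S and 3 in RPMI8226, and all 3 of the latter overlapped MM.1S peaks. ABCG4, a sterol transporter of brain, had 6 and 4 peaks, and its canonical start was called in 9 of 9 MM.1S libraries but in 3 of 5 RPMI8226 libraries. A 658 bp peak over the start of ABCG4 was listed in MM.1S only, at full support.

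In the group assigned to sterol and lipid export, ABCA4 and ABCB4 had a promoter peak in only 1 line. ABCA4, a retinoid flippase of photoreceptors, was listed in MM.1S through a 252 bp peak with the minimum support of 3, at an inner noncoding start 59709 bp downstream of the canonical one. ABCB4, which exports phosphatidylcholine into bile, was listed in RPMI8226 only, through a 268 bp peak called in 4 of 5 libraries and centred 1032 bp into the gene, although its start is CpG-rich (GC 66.0%, ratio 0.79). ABCB4 had 5 neighbourhood peaks in RPMI8226 and 2 in MM.1S, of which 1 in each line overlapped. ABCB5, a relative of ABCB1, was the other MM.1S-only member, with a 293 bp peak in 4 of 9 libraries at inner starts. The neighbourhood of ABCB5 held 7 peaks in MM.1S, of which 4 were at full support and 1 was shared, and 2 peaks in RPMI8226. Each of the 3 members open in only 1 line was thus so through a peak of 252 to 293 bp with incomplete support.

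The genes of intracellular membranes were open throughout. ABCB9, a lysosomal peptide transporter, had 10 peaks in MM.1S and 7 in RPMI8226, with the widest promoter peak of any member in RPMI8226 (1348 bp), which also lay at a start of OGFOD2. ABCB8 of mitochondria had 7 peaks in each line, or 11.8 per 100 kb, 6 of them shared in each. ABCB6, which carries porphyrins, had 4 peaks in each line that were all shared, and its widest promoter peak in MM.1S measured 1500 bp. ABCB10, which supports haem synthesis in mitochondria, had 5 shared peaks in each line and a promoter of 973 bp in MM.1S and 1157 bp in RPMI8226. Of the peroxisomal and lysosomal ABCD genes, ABCD2 had 2 peaks in each line, ABCD3 had 2 in MM.1S and 3 in RPMI8226, and ABCD4 had 2 in each line. As a group, these 7 genes had 25 of 32 MM.1S peaks (78.1%, all genes 66.3%) and 25 of 30 RPMI8226 peaks (83.3%, all genes 66.5%) shared. Promoter peaks made up 16 of the 32 and 18 of the 30, and over all members promoter peaks were shared at 81.5% and 87.7%.

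The translation genes had compact neighbourhoods with complete promoters. ABCE1, which recycles ribosomes, had 3 and 2 peaks and a promoter of 1225 bp in MM.1S and 1105 bp in RPMI8226, in a window that also holds a start of ANAPC10. ABCF1 had 5 and 4 peaks, all shared. ABCF2 had 6 peaks in MM.1S, 2 of them shared, and 3 in RPMI8226, all shared, with a density of 10.8 per 100 kb in MM.1S. ABCF3 had 2 and 3 peaks, and its promoter measured 1203 bp in MM.1S and 1097 bp in RPMI8226.

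The channel regulators pair with potassium channel subunits. ABCC8, the sulfonylurea receptor of pancreatic beta cells, was closed at its canonical start in both lines despite a CpG-rich sequence and was counted open through inner starts (9 of 9 and 5 of 5 libraries). It had 5 peaks in MM.1S, all shared, and 9 in RPMI8226. ABCC9, its counterpart in heart and smooth muscle, had no peak in the MM.1S neighbourhood and 1 downstream peak with the minimum support of 3 in RPMI8226.

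ABCA6, ABCA8, ABCA9 and ABCA10, which stand next to each other with ABCA5 on chromosome 17, were nearly empty. ABCA6 had 1 peak in MM.1S and none in RPMI8226, ABCA9 had 2 and none, ABCA8 had none and 3, and ABCA10 had 1 in each line that was shared. The ABCA6 peak was a 711 bp region that also counted for ABCA9, and the ABCA10 peak of each line also counted for ABCA5. ABCA5, at the end of the cluster, was open in both lines at full support with 2 shared peaks in each, and it is the only member of the cluster with a CpG-rich start. ABCA12, the lipid transporter of skin, had no peak in either line over a body of 207 kb.

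ABCA13, the longest member at 476 kb, had no promoter peak but 8 neighbourhood peaks in MM.1S and 5 in RPMI8226, or 1.55 and 0.969 per 100 kb. The liver genes ABCB11, ABCG5 and ABCG8 had 2, 1 and 4 peaks in MM.1S and 2, 1 and 2 in RPMI8226, none at a start. ABCC6, a liver gene whose loss causes ectopic calcification, had 5 and 7 peaks but none at its start. Of the 50-base words within 2500 bp of the ABCC6 start, 81.2% occur again elsewhere in hg38, against a median of 1.92% over the 43 members and 11.5% for the next highest, ABCA6. Because the authors left out reads that map to several places, a closed start of ABCC6 cannot be told apart from one that could not be read. ABCC12, which has no settled substrate, had 4 and 6 peaks and a promoter called in 8 of 9 and 5 of 5 libraries.

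Across all neighbourhoods the members had 195 peaks in MM.1S and 193 in RPMI8226. The median per gene was 5 in MM.1S and 3 in RPMI8226, where all genes had 4 in each, although member bodies were longer (median 75.1 kb against 27.9 kb). Per 100 kb the members had a median of 3.48 and 3.62 peaks, against 4.52 and 4.55 for all genes. More peaks were listed in MM.1S for 16 members, more in RPMI8226 for 14, and equal numbers for 13.

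Sharing was counted as an overlap of at least 1 bp. Of the MM.1S peaks, 129 of 195 overlapped a RPMI8226 peak (66.2%, interval 59.3 to 72.4, background 66.3%), and of the RPMI8226 peaks, 134 of 193 overlapped a MM.1S peak (69.4%, interval 62.6 to 75.5, background 66.5%). Member promoter peaks were shared at 81.5% in MM.1S and 87.7% in RPMI8226, and intronic peaks at 48.1% and 43.1%. Shares by place are not available for all genes, so this difference cannot be called particular to the members. Sharing also followed support, among members as among all genes. Of the 110 MM.1S peaks at full support, 92 were shared (83.6%, all genes 82.3%). At support 3, 0 of 18 were, where 32% of all gene neighbourhood peaks at support 3 were shared in MM.1S. In RPMI8226, 108 of 135 member peaks at full support were shared (80%, all genes 78.0%), and 6 of 22 at support 3 (27.3%, all genes 39.9%).

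The support number also bounds what the culture conditions could have contributed. A MM.1S peak called in more than 6 libraries must include at least 1 MONO library, and 150 of the 195 member peaks did. The other 45 (23.1%, all genes 25.1%) could lack monoculture. In RPMI8226, 58 of 193 member peaks were not called in all 5 libraries and could lack the only MONO library (30.1%, all genes 33.5%). Drug efflux genes held 19 of the 45 MM.1S peaks that could lack monoculture, among them the ABCB1 peaks at 36496, 57022 and 94952 bp. This was 38% of their 50 MM.1S peaks, against 25.1% for all genes. In RPMI8226 the count was 19 of their 55 peaks (34.5%, all genes 33.5%). Whether these peaks came with stromal contact was not tested.

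AP-1, STAT and ATF::CEBP are motifs of factors that respond to cytokines and stress. Among 35 member promoter sequences of 300 bases, searched on both strands, AP-1 occurred in 2 (5.71%, all promoters 5.69%), namely ABCA5 and ABCB11, STAT in 0 (all promoters 1.18%), and ATF::CEBP in 3 (8.57%, all promoters 2.56%), namely ABCA13, ABCB11 and ABCG2. None of these 3 sequences lay at an open start, since ABCA13 and ABCB11 had no promoter peak and the ABCG2 sequence was that of an outer start at -72987 bp with no peak in either line. The ABCB1 sequence in these counts was likewise that of its outer start, at -112411 bp. Its canonical-start sequence, printed above, was not counted, and its letters hold an AP-1 match (TGATTCA) and CCAAT. CRE occurred in 1, ABCE1 (2.86%, all 2.70%), the CCAAT box (CCAAT) in 6 (17.1%, all 36.3%), the GC box (GGGCGG) in 18 (51.4%, all 59.6%), the TATA box (TATAAA) in 5 (14.3%, all 9.72%) and the E-box in 4 (11.4%, all 8.76%). In peaks away from promoters, AP-1 occurred in 10 of 90 member peaks in MM.1S (11.1%, all 11.4%) and in 19 of 92 in RPMI8226 (20.7%, all 20.3%). ATF::CEBP occurred there in 2 of 90 (2.22%, all 3.43%) and 2 of 92 (2.17%, all 3.80%).

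Genes that feed, sense or accompany the transporters were counted from lists. Of 24 genes of cholesterol handling and LXR signalling, 22 had a promoter peak in both lines, CH25H in MM.1S only and CYP27A1 in neither, against 69.8% of all genes and 84.6% of CpG-rich genes, and 83.3% of the list was CpG-rich. Of 10 xenobiotic receptors and stress regulators, 9 were open in both lines, and AHR, the aryl hydrocarbon receptor that regulates ABCG2 in other tissues, was open in MM.1S only. TAP1 and TAP2, which carry peptides for antigen presentation, and the chloride channel gene CFTR, ABC genes whose names fall outside the rule, had promoter peaks in both lines at full support. The CFTR peak (318 bp in MM.1S and 223 bp in RPMI8226) lay at a start other than the canonical one, which had no peak in either line. Solute carriers, the other large transporter family, were open in both lines at 232 of 371 genes (62.5%) and in neither at 89 (24%), next to 67.4% and 25.6% for the ABC transporter genes.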

How the data were processed

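Omni-ATAC libraries of MM.1S and RPMI8226 were assigned to a line and a condition by their titles. As the methods describe, the authors aligned reads to hg38 with Bowtie2, left out reads mapping to several places, kept 1 read per position and called peaks with MACS3, and a peak entered the list of its line when present in at least 3 samples. The deposited value of each peak is a whole number with no header, taken here as support, that is, how many libraries had the peak, in a unit other than reads, with no normalization. Its range, 3 to 9 and 3 to 5, fits that reading. Coordinates were read as starting from 0, which the files do not state, so that positions may be off by 1 base.

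Promoter windows, neighbourhoods and sharing (overlap of at least 1 bp) were computed from GENCODE release 44 with Python 3.11.15, pandas 2.3.3 and pysam 0.24.0, and checked on simulated data. Promoter sequences came from the RefSeq table of GRCh38.p14, which matched 35 of 43 members. Genes named with values were ABCA1, ABCB1, those open in only 1 line or with incomplete promoter support, the 5 highest in peak number, density and promoter width in each line (ties kept), and ABC genes outside the rule, some of which are not reported here. Further members are described so that each is accounted for. Members and lists were chosen with earlier results of these data known, and no test was run. Intervals are 95% Wilson intervals.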

Additional observations from a re-analysis of the deposited data

How the results depend on the processing

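On recomputation, 61 values stayed within 1.5 times the reported count or within its interval, including each count of members with a promoter peak, which ranged from 25 to 36 in MM.1S, from 26 to 35 in RPMI8226 and from 24 to 34 in both lines. Another 23 values moved. With only peaks called in every library of the line, MM.1S neighbourhoods held 110 peaks, sharing rose to 83.6% in MM.1S and 80% in RPMI8226, ABCA1 had 5 and 4 peaks, and ABCB1 had 2 and 1. When peaks narrower than the median of their list were left out, the neighbourhoods held 99 and 106 peaks, sharing was 77.8% and 81.1%, ABCA1 had 5 and 3 peaks, and ABCB1 had 1 and 0. Without a flank, MM.1S neighbourhoods held 122 peaks and ABCA1 had 5 in each line. With a flank of 50 kb they held 317 and 300, and ABCB1 had 8 in RPMI8226 and 6 in MM.1S, which reversed the order of the lines. An overlap of at least 50% of both peaks lowered sharing to 53.8% and 53.9%. Fewer or more peaks entered by construction. No paired analysis was possible because the lists hold no value for a single library, and for the same reason no library could be left out. The lists carry no depth and the read totals of the study were not used here, so an unlisted peak may be a closed region or one too weak to be called.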
